A study of Mus musculus with 50 samples.

Results

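Among the sorted blood-forming cells of mice that had received 1 haematopoietic stem cell (HSC), 233 cells carried the messenger RNA of Vwf together with stem cell genes. They were chosen in steps from the deposited count matrix. Of 4271 cells used, 4185 had at least 1000 genes with a count and at most 10% of counts from mitochondrial genes. A stem cell gate then took cells with Procr at 50 CPM or more (the cell's counts scaled to a total of 1000000), a count of Mecom or Hlf, and less than 30 CPM of the cycling genes Mki67, Top2a and Birc5 together. This gate held 1862 cells. The 233 cells with Vwf at 20 CPM or more are called Vwf+ gate cells here and were compared with the 1473 gate cells that had no Vwf count. Another 156 gate cells had a Vwf count below 20 CPM and were kept as an intermediate group.

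Donors of the HSCs were B6-Ly5.2 mice transgenic for β-actin-GFP. Each was given with whole marrow of B6-Ly5.2 mice to a lethally irradiated B6-Ly5.2 recipient. By the labels, 10 of the 50 samples were taken 1 month after the transplant, 26 after 4 months and 14 after 12 months, from marrow or from marrow and spleen. Cells were enriched for c-Kit, the stem cell factor receptor, stained for CD201, CD150, CD48, Sca-1, c-Kit and lineage markers, and sorted singly by these markers or by GFP. The age and sex of the mice are not given in the sources used here. Every sample shares irradiation and competitor marrow, so cells of host, competitor and donor origin could each be in the gate, and donor cells were not traced here. The sort itself can set any share of cells given below.

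No cell name in the matrix holds a sample title, and the cells were therefore treated as 1 pooled sample. There is no test, and months and tissues were not compared. Cells came in 67 libraries, which are not replicates of a group, and values over libraries are given as a description. The 95 cell numbers in the names recur, 93 of them in more than 1 library and one of them in 52 libraries, and 0 cells had counts identical to another cell. Median depth was 129542 counts in Vwf+ gate cells and 125716 in Vwf-negative gate cells. Gate cells with high neutrophil or erythroid marker counts stood out in 8 libraries, with a median gate cell over 1000 CPM of either marker list. Those libraries held 223 gate cells and 29 of the Vwf+ gate cells.

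Vwf encodes von Willebrand factor, a large adhesive glycoprotein that binds platelets to injured vessel walls. It is made by megakaryocytes and stored in their alpha granules, and by endothelial cells, which store it in Weibel-Palade bodies. In mouse marrow, HSCs that express Vwf are known as a subset that leans toward the platelet and myeloid lineages, sits high in the stem cell hierarchy and becomes more frequent with age. CD150, encoded by Slamf1, is the surface protein most often used to enrich such cells.

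The Vwf+ gate cells were 12.5% of the gate (233 of 1862 cells, exact Clopper-Pearson 95% interval 11.0 to 14.1%) and 5.57% of all kept cells. Intervals cover counting error only. Within the Vwf+ gate cells the Vwf level ran from 20.3 to 796 CPM with a median of 101 CPM. The median Vwf+ gate cell had 12 Vwf counts, and 16 of them rested on a single count. In the intermediate group 118 of 156 cells had a single count. The level alone chose these cells, and around the minimum there was no gap: 11 cells lay at 15 to under 20 CPM, the highest of them at 18.7 CPM, and 15 lay at 20 to under 25 CPM, the lowest at 20.3 CPM. Many of the Vwf+ gate cells were well above it, with 77 cells at 100 to under 200 CPM, 26 at 200 to under 300 CPM and 14 at 300 CPM or more.

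**Figure D1:**
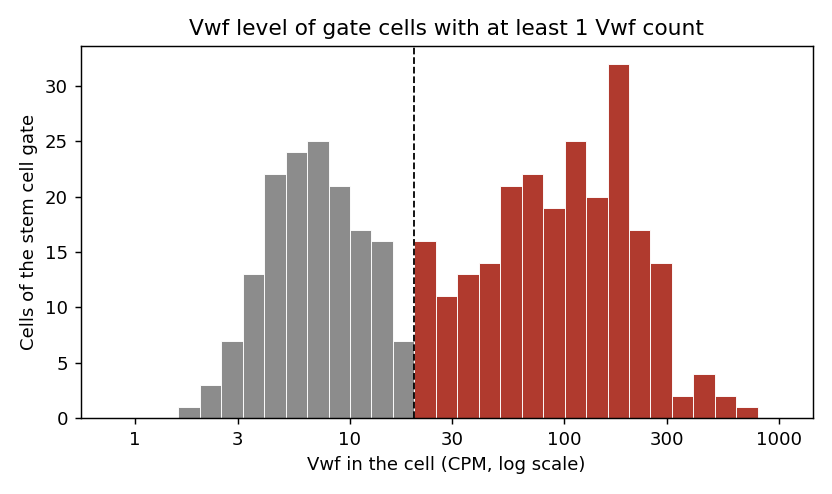
Histogram of the Vwf level (CPM, log axis) of the 389 gate cells with at least 1 Vwf count; the dashed line is the minimum of 20 CPM, grey bars are the intermediate group and red bars the Vwf+ gate cells. Grey bars gather below 20 CPM, where most cells have a single count, and red bars reach 796 CPM.

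The share changed little with depth once the minimum was applied. Over 4 equal classes of gate cells, from the shallowest to the deepest, it was 11.6%, 14.2%, 12.5% and 11.8%. The share with any Vwf count was 12.2% in the shallowest class and 25.1% in the deepest. In 96 cells with B-lineage markers and no Procr count, 3.1% had a Vwf count at a median depth of 37204.5 counts, and 2.8% had one after each cell was thinned to 20000 counts. Thinned in the same way, 80.6% of Vwf+ gate cells kept a Vwf count. That share follows from choosing these cells by Vwf and is given as a description only.

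Vwf+ gate cells were spread over the libraries, not drawn from a few. They were found in 49 of the 64 libraries with gate cells. Among the 38 libraries with at least 20 gate cells, the share ranged from 0 to 36.4% with a median of 9.46%, and 3 libraries had none. The highest share belonged to a library with 16 Vwf+ cells among 44 gate cells (36.4%, interval 22.4 to 52.2%), one of the 8 with high neutrophil or erythroid markers. Without that library the share over all others was 11.9%, and without all 8 it was 12.4%.

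**Figure D2:**
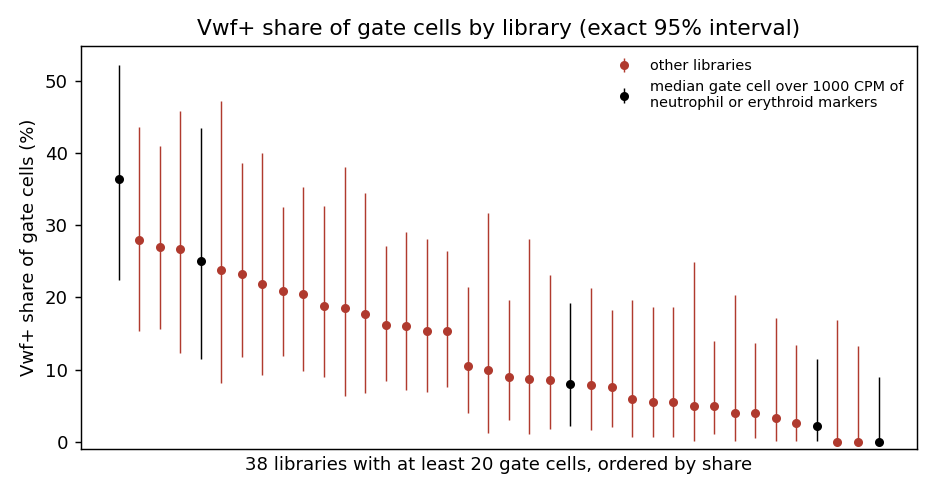
Vwf+ share of gate cells (%) in each of the 38 libraries with at least 20 gate cells, ordered by share; points are shares and bars exact 95% intervals, black for libraries whose median gate cell had over 1000 CPM of neutrophil or erythroid markers. Shares run from 36.4% down to 0, and the black points include the highest and one of the lowest.

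The label of these cells, platelet-primed stem cells, was checked against markers. Of 10 HSC marker genes, the rule used Procr, Vwf, Mecom and Hlf. The other 6 (Selp, Slamf1, Fgd5, Hoxb5, Mllt3 and Ctnnal1) summed to a median of 454 CPM per Vwf+ gate cell and 279 CPM per Vwf-negative gate cell. Their ranges, from 0 to 2801 CPM and from 0 to 2532 CPM, overlapped. As summed counts of each group the 6 were at 600 against 363 CPM, of which Mllt3 alone gave 397 and 226 CPM. Of the genes in the rule, which are given as a description, summed Procr was at 415 CPM in Vwf+ and 361 CPM in Vwf-negative gate cells, Mecom at 151 and 170 CPM, and Hlf at 217 and 230 CPM. Slamf1 was higher in the Vwf+ gate cells, at 74.9 against 33.5 CPM. Selp, which encodes the platelet and endothelial adhesion protein P-selectin, was at 54.2 against 50.4 CPM, a log2 ratio of 0.10, and higher in 8 of 19 libraries. The markers of mature megakaryocytes or platelets had a median of 257 CPM per Vwf+ gate cell and 212 CPM per Vwf-negative gate cell, and 20 of 233 against 99 of 1473 cells had over 1000 CPM of them. The gate required stem cell genes in both groups, and most Vwf+ gate cells were below 1000 CPM of mature platelet markers, so "Vwf+ gate cells" is used here.

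Here and below, levels are summed counts of a group as CPM, and a log2 ratio is taken after adding 1 CPM to both. A gene counts as tested at 10 CPM or more in either group and as higher or lower past 1.5-fold. Directions within libraries were counted over the 19 libraries with at least 5 cells of each group.

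Among the surface genes by which HSCs are sorted, Slamf1 was higher and Cd34 and Flt3 were lower in Vwf+ gate cells. Slamf1, a homophilic receptor of the SLAM family, had a log2 ratio of 1.14. Over the 19 libraries its level in Vwf+ gate cells was 0 at the lowest, 77.9 CPM at the median and 280 CPM at the highest, and in Vwf-negative gate cells 12.1, 34.3 and 111 CPM. The ranges overlapped, and Slamf1 was higher in the Vwf+ cells of 14 of 19 libraries. Cd34, which encodes a sialomucin that is low on long-term HSCs of adult mice and high on multipotent progenitors, was at 112 CPM in Vwf+ and 219 CPM in Vwf-negative gate cells, a log2 ratio of -0.96. Its library levels were 6.75, 89.1 and 331 CPM (lowest, median, highest) in Vwf+ cells and 102, 203 and 266 CPM in Vwf-negative cells, and it was lower in 16 of 19 libraries. Flt3, the cytokine receptor gained as stem cells become multipotent progenitors, was at 19.4 against 34.0 CPM (-0.78, lower in 14 of 19).

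Other sort genes moved in both directions. Neo1, encoding the netrin and RGM receptor neogenin, was at 28.8 against 3.61 CPM (log2 ratio 2.69, higher in 13 of 19 libraries). Its library levels were 0, 9.18 and 154 CPM (lowest, median, highest) in Vwf+ cells and 0, 2.59 and 33.0 CPM in Vwf-negative cells. Cd38, an ectoenzyme on mouse HSCs, was at 39.7 against 15.6 CPM (1.30, higher in 11). Cd48, a SLAM family ligand absent from most HSCs, was at 5.24 against 13.4 CPM (-1.20, lower in 13). Cd244, another SLAM family receptor, was at 7.58 against 12.3 CPM (-0.63), with 48.9% of its Vwf+ counts from 1 cell of library Lib102, and without that library the log2 ratio was -1.46. Esam, a junction molecule, was at 244 against 195 CPM (0.32), inside the 1.5-fold limits. Of 20 tested genes in this list, 4 were higher and 4 lower. Beside these counts, 5.4% of all 8688 tested genes were higher and 3.23% lower. The list counts below are to be read beside the same shares, except where a subset or another setting is named. Counted by cell, 47.6% of Vwf+ gate cells had a Slamf1 count (interval 41.1 to 54.3%), against 28.9% of Vwf-negative cells (26.5 to 31.2%). A Cd34 count was missing in 31.3% of Vwf+ gate cells (25.4 to 37.7%) and in 16.4% of Vwf-negative cells (14.6 to 18.4%). Intermediate cells were deeper, with a median of 174646 counts. Their shares of cells with a count are compared only after thinning, below, while their list medians use all counts. B-lineage reference cells had a Slamf1 count in 14.6% of cells, at their lower depth.

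Divided by surface class, the gate held very different shares of Vwf+ cells. Of the 104 gate cells with a Slamf1 count and no Cd34 count, 34.6% were Vwf+ (interval 25.6 to 44.6%). Of the 1033 with Cd34 and no Slamf1 count, 8.23% were (6.63 to 10.1%). Cells with both counts and cells with neither lay between these, at 15.2% and 15.9%. Because a missing count depends on depth, the classes were also drawn after thinning each cell to 20000 counts. The order was the same, with 31.3% for Slamf1 without Cd34, 15.5% for both, 16.2% for neither and 7.83% for Cd34 without Slamf1. Among the 626 gate cells with counts of both Cd34 and Flt3, 7.83% were Vwf+ (49 cells), and 6.14% after thinning.

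**Figure D3:**
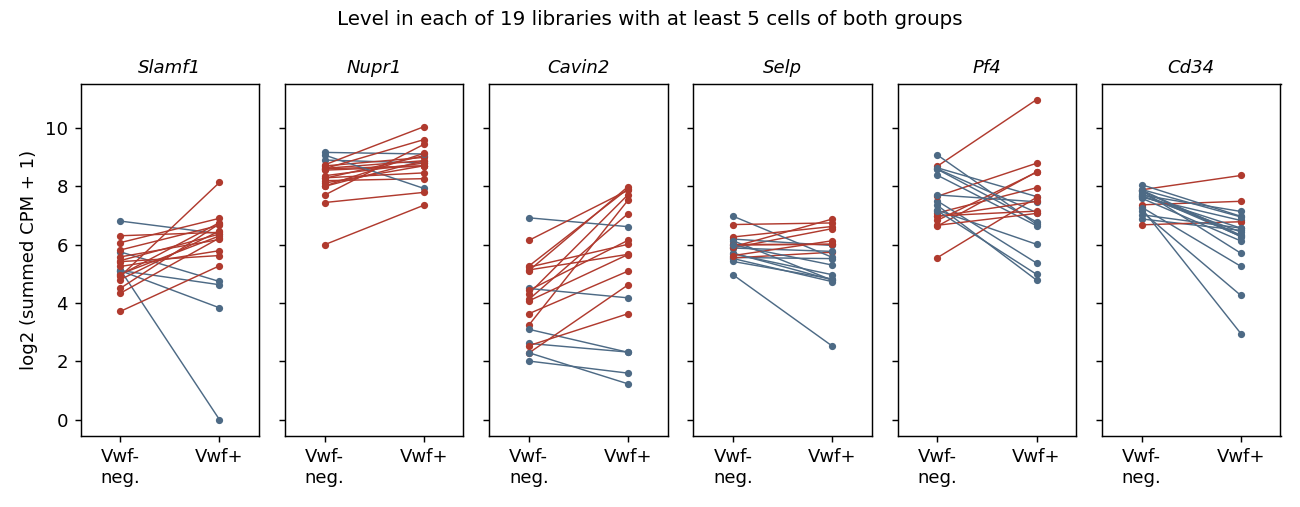
Level of 6 genes in the Vwf-negative and Vwf+ gate cells of each of the 19 libraries with 5 or more cells of each group, as log2 of the summed CPM plus 1; each line is a library, red where the Vwf+ cells were higher and blue where they were lower. Nupr1, Slamf1 and Cavin2 are mostly red (16, 14 and 13 of 19 libraries), Cd34 mostly blue (lower in 16 of 19), and Selp and Pf4 mixed.

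Cavin2 and Nupr1 were, with Slamf1, among the genes whose share of positive cells differed most. Cavin2 encodes a coat protein of caveolae, the small pits of the plasma membrane, and is abundant in platelets. It was at 95.4 against 12.7 CPM, a log2 ratio of 2.82. Library levels of Cavin2 were 1.34, 49.9 and 254 CPM in Vwf+ cells and 3.02, 16.4 and 120.4 CPM in Vwf-negative cells, with 13 of 19 libraries higher. Nupr1, a small chromatin-associated stress protein, was at 441 against 240.4 CPM (0.87, higher in 16 of 19). Its library levels were 162, 446 and 1057 CPM in Vwf+ cells and 63.0, 329 and 574 CPM in Vwf-negative cells. The ranges of both genes overlapped between the groups.

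The bases just before the start of these genes are shown because Slamf1, Cavin2 and Nupr1 were higher and Cd34 lower in the Vwf+ gate cells as a group. Whether all 4 differed in the same single cells was not tested. They come from RefSeq (build GRCm38.p6), 250 bases each, 5′ to 3′ on the gene's strand and ending at the base before the RefSeq start. They lie at chr1:171766882-171767131 (plus strand) for Slamf1, chr1:51288876-51289125 (plus) for Cavin2, chr7:126625471-126625720 (minus) for Nupr1 and chr1:194938571-194938820 (plus) for Cd34. By Ensembl gene bounds, the Nupr1 window lies inside the gene (chr7:126623249-126630861), and the Slamf1 window runs past the gene's start at 171767127. Capitals mark matches on either strand to GATAA (the core of GATA factor motifs), GGAAG (a core of ETS factor motifs) and CCAAT (the CCAAT box), none of which overlap here.
Slamf1: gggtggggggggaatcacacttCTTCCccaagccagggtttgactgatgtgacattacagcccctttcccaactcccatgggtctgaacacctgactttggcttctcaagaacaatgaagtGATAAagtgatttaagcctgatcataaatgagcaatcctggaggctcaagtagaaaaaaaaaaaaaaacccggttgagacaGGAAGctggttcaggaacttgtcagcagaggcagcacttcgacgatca
Cavin2: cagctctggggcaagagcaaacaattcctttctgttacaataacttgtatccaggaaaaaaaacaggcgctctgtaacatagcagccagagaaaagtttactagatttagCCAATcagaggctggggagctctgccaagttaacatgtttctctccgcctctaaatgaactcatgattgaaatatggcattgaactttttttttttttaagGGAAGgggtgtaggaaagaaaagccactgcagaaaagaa
Nupr1: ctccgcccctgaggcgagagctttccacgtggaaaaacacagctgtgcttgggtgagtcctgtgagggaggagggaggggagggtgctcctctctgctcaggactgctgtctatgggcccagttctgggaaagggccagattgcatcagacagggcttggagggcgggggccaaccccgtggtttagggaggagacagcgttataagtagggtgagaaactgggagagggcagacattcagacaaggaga
Cd34: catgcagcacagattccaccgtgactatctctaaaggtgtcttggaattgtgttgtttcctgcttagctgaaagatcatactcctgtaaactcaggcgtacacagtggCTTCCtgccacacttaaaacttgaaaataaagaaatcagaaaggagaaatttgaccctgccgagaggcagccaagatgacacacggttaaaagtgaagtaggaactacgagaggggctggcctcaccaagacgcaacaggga
Slamf1 held 1 GATAA and 2 GGAAG matches, Cavin2 held 1 GGAAG and 1 CCAAT, Cd34 held 1 GGAAG, and the Nupr1 window held 0 of these letters. Among 32817 such windows of the RefSeq table, 22.6% held GATAA, 64.1% GGAAG and 33.8% CCAAT, so the matches are common ones and are given as a description of these windows.

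Over all genes, 469 of 8688 were higher and 281 lower in Vwf+ gate cells, with a median log2 ratio of -0.0079. Single cells weighed on the higher genes: 1 cell gave over 50% of the Vwf+ counts in 41 of them, and without each gene's top cell in either group 291 kept a ratio past 1.5-fold, 246 of them still at 10 CPM or more. A stricter set, past 1.5-fold and in the same direction in at least 15 of the 19 libraries, held 18 genes that were higher (0.207%) and 82 that were lower (0.944%). Within these libraries a median of 8 Vwf+ cells was set against 32 Vwf-negative cells, and the directions leaned downward over all genes: 4.43% of tested genes were lower and 0.633% higher in 15 or more libraries.

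The 15 highest of the stricter set mixed stem cell, cytoskeletal and little-known genes. Kazald1, a secreted insulin-like growth factor binding protein relative, was at 37.0 against 13.7 CPM (1.37). Mylk, myosin light chain kinase, which drives contraction and platelet shape change, was at 51.8 against 23.8 CPM (1.09, 15 of 19 libraries). Clec1a, a C-type lectin receptor, was at 108 against 52.9 CPM (1.02). Mycn, a MYC family transcription factor expressed in HSCs, was at 300 against 166 CPM (0.85). Mllt3, a chromatin reader that maintains HSCs, was at 397 against 226 CPM (0.81, 16 of 19), and Tgm2, tissue transglutaminase, at 161 against 95.3 CPM (0.75). The others were 1700029J07Rik, Erp27, Bex4, Hgfac, Oxr1, Selenom, Art4, Sult1a1 and Nupr1, with log2 ratios from 0.73 to 1.15. No single cell gave more than 11.8% of the Vwf+ counts of any of the 15. By the median of the 19 library ratios, which was -0.16 over all tested genes, Nupr1 (0.35), Mycn (0.38), Mllt3 (0.52) and Sult1a1 (0.54) were inside 1.5-fold. Selenom was inside it at 0.53 after thinning. It was at 0.51 without cells over 1000 CPM of the markers of any of 8 other cell types (named below, endothelium not among them).

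The 15 lowest were Cd69, Rfxap, Tespa1, Clnk, Zfp189, Ube2m, Ung, Ttl, Kcnk12, P3h3, Btbd7, Tsc2, Dopey2, Ears2 and Fam91a1, with log2 ratios from -1.89 to -1.11. In 13 of them both groups were under 30 CPM. Cd69, an early activation antigen of lymphocytes that holds cells in tissue, was at 8.44 against 33.9 CPM (-1.89, and -2.52 without library Lib112). Ttl, tubulin tyrosine ligase, was at 3.88 against 10.4 CPM (-1.22, and -1.86 without library Lib115). Tespa1, an adaptor of antigen receptor signalling in thymocytes, was at 14.9 against 41.7 CPM (-1.42), and Clnk, an adaptor related to SLP-76, at 7.58 against 21.9 CPM.

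A second measure, the share of cells with a count after thinning to 20000 counts, does not let 1 cell dominate. It was at least 10 percentage points higher in Vwf+ gate cells for 99 tested genes (1.14%) and at least 10 points lower for 24 (0.276%). Bex4 led, with 46.3% of Vwf+ and 24.2% of Vwf-negative cells, followed by Cavin2 (30.8% and 8.80%), Nupr1 (73.1% and 54.2%) and Slamf1 (38.3% and 19.6%). Clec1a, Clca3a1, Gstm2, Oxr1, Mycn, Tgm2 and Mt1 also differed by more than 17 points. Cd34 was at the other end, with 49.8% of Vwf+ and 72.2% of Vwf-negative cells. Gm9844 was next, with 54.6% and 71.6%, then Vldlr, a lipoprotein receptor, with 14.1% and 28.1%. This ranking was made after the values were seen.

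The list with the largest difference was that of genes known to rise in the HSCs of old mice. It includes Slamf1 and other genes known from Vwf+ HSCs, so its direction is not independent of how such cells are known. Of 41 listed genes, 31 were tested, 22 were higher and 0 lower, with a median log2 ratio of 0.94. After thinning, 15 of the 31 had a share of positive cells at least 10 points higher and 0 had one at least 10 points lower. The list's median was above 0 in 14 of 19 libraries. Taken within libraries, the middle of the 19 list medians was 0.48 (SD 0.61), below the pooled 0.94. Of the 31 genes, 5 were higher past 1.5-fold and in at least 75% of libraries. The pooled median was 0.95 without the 8 libraries with high neutrophil or erythroid markers. It was 0.94 without cells over 1000 CPM of the markers of any of the 8 other cell types.

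Among its members, Clu, encoding the secreted chaperone clusterin, was at 32.0 against 6.09 CPM (2.22). Its library levels were 0, 11.5 and 247 CPM in Vwf+ cells and 0, 4.10 and 112 CPM in Vwf-negative cells, higher in 12 and lower in 6. Gstm2, a glutathione transferase, was at 74.6 against 22.8 CPM (1.67, 14 of 19 libraries). Tm4sf1, a tetraspanin-like membrane protein, was at 45.0 against 14.0 CPM (1.61, 14 of 19). Mt1, the metal-binding metallothionein 1, was at 241 against 88.3 CPM (1.44, 14 of 19), and the lowest log2 ratio with 1 library left out was 0.98. Jam2, a junctional adhesion molecule of HSCs, was at 36.3 against 15.7 CPM (1.16), and Aldh1a1, a retinaldehyde dehydrogenase, at 274 against 176 CPM (0.64, 15 of 19). Gpr183, an oxysterol receptor, had the highest ratio at 28.3 against 3.52 CPM (2.70), but 1 cell gave 40.8% of its counts, it was higher in 5 and lower in 4 libraries, and it was at 1.92 without library Lib116. At the other end of this list, Fyb (0.25), Selp (0.10) and Tnfrsf21 (-0.09) were inside the limits.

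The old-HSC difference was smaller among cells alike in Slamf1 and Cd34. Restricting both groups to cells with a Slamf1 count and no Cd34 count left 36 Vwf+ and 60 Vwf-negative gate cells. The median of the old-HSC list was then 0.21, with 6 of 31 tested genes higher and 2 lower. Of all 8987 genes tested in this subset, 2030 were higher and 1913 lower, and list counts there are to be read beside these. Of the 15 highest genes above, 1700029J07Rik (3.17), Kazald1 (1.55), Erp27 (1.31), Mycn (0.70), Mylk (0.66) and Oxr1 (0.65) were past 1.5-fold there too. The rest were not: Tgm2 (0.38), Nupr1 (0.28), Selenom (0.17), Mllt3 (0.14), Clec1a (0.04), Bex4 (-0.07), Art4 (-0.11), Sult1a1 (-0.34) and Hgfac (-0.52). With these few cells, and so many genes past the limits, single ratios in this subset are coarse.

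Platelet genes differed less, and gene by gene. Of 30 listed surface receptors of platelets and megakaryocytes, 19 were tested, 7 were higher and 0 lower, with a median log2 ratio of 0.35. Itga2b, the alpha chain of the fibrinogen receptor, was at 80.9 against 45.6 CPM (0.81, higher in 11 of 19 libraries). Gp9, a part of the receptor complex that binds von Willebrand factor itself, was at 101 against 65.9 CPM (0.61, 11 of 19). Another part of that complex, Gp1bb, was at 16.0 against 2.75 CPM (2.18), with 1 cell giving 38.6% of its counts. Clec1b, the podoplanin receptor CLEC-2, was at 21.6 against 4.99 CPM (1.92), with 32.1% from 1 cell. Tbxa2r, the thromboxane receptor, was at 61.2 against 30.8 CPM (0.97), Jam3 at 30.3 against 18.4 CPM (0.69) and Treml1 at 14.7 against 9.06 CPM (0.64). Itgb3, which pairs with Itga2b, was at 29.4 against 19.6 CPM (0.56) and lower in 13 of 19 libraries. Without each gene's top cell, 3 of 17 tested receptors were higher and 0 lower. Of all 8414 genes tested in that setting, 246 were higher and 489 lower. Leaving out 1 library put 5 of the 7 under 1.5-fold: Itga2b (0.47) and Treml1 (0.07) without library Lib102, Tbxa2r (0.58) without Lib42, Jam3 (0.55) without Lib78, and Gp9 (0.47) without Lib115. Gp1bb was then at 1.53 without Lib102.

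Granule genes showed how much a single cell could carry. In a list of 30, 19 were tested, 4 were higher and 0 lower, with a median of 0.15. Pf4, the chemokine platelet factor 4, was at 230 against 194 CPM (0.24, higher in 9 of 19 libraries). Its library levels were 26.6, 141 and 2017 CPM in Vwf+ cells and 46.1, 162 and 540 CPM in Vwf-negative cells. Pf4 counts were present in 62.2% of Vwf+ and 62.7% of Vwf-negative gate cells, and in 43.2% and 43.5% after thinning. B-lineage reference cells had a Pf4 count in 26.0%. Thbs1, the matrix glycoprotein thrombospondin 1, had a log2 ratio of 3.52, and Ppbp, a platelet chemokine, of 2.42. Of these counts 89.6% and 88.1% came from 1 Vwf+ gate cell of library Lib102, and without that library the ratios were 0.39 and -0.55. That cell had 430 CPM of Vwf, 3800 CPM of Pf4 and 492876 counts in all. It also gave 97.3% of the group's counts of Sftpc, a lung surfactant gene. The other higher genes of the list were Clu and Anxa3, an annexin, whose ratio of 1.16 was 0.11 without library Lib115. Without each gene's top cell, 1 of 15 tested granule genes was higher and 1 lower, beside 246 higher and 489 lower of all 8414 genes tested there. The share of Vwf+ cells with at least 3 of 9 late platelet genes (Pf4, Ppbp, Gp9, Gp1bb, Gp1ba, Gp6, Tubb1, Treml1, Clec1b) was 17.2% (interval 12.6 to 22.6%), against 10.0% of Vwf-negative gate cells (8.5 to 11.6%). After thinning it was 7.93% of Vwf+ (4.77 to 12.2%), 7.05% of intermediate (3.57 to 12.3%) and 3.03% of Vwf-negative gate cells (2.19 to 4.07%).

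Cytoskeleton and signalling genes of platelets were similar, with 7 of 25 tested higher, 0 lower and a median of 0.27. Besides Cavin2 and Mylk, Dnm3, a dynamin of megakaryocytes, was at 13.7 against 4.73 CPM (1.35, higher in 11 libraries). Alox12, platelet 12-lipoxygenase, was at 25.9 against 2.15 CPM (3.09), with 40.0% of its counts from 1 cell. Tpm4, a tropomyosin, Myl9, a myosin light chain, and Plek, the protein kinase C substrate pleckstrin, were past the limit at 1.04, 2.74 and 0.75. Without library Lib102 they were at 0.30, 0.02 and 0.28, and Alox12 at 2.42. Flna, Syk, Tuba4a and Zyx had ratios from -0.31 to -0.15. Without each gene's top cell, 4 of 24 were higher and 0 lower, beside 246 higher and 489 lower of all 8414 genes tested there. Over the settings run, the medians of the 3 platelet lists ranged from 0.24 to 0.40 for receptors, from -0.08 to 0.27 for granule genes and from -0.07 to 0.30 for cytoskeleton and signalling genes. Taken within libraries, the middle of the 19 list medians was 0.04 for receptors (above 0 in 12 libraries and below in 4), -0.04 for granule genes (8 and 10) and 0 for cytoskeleton and signalling genes (6 and 9). Genes of Weibel-Palade bodies and exocytosis, the machinery that stores and releases von Willebrand factor in endothelium, were at a median of 0.08 (0 of 16 higher, 1 lower). Unc13d, which primes granules for release, was at 109 against 88.3 CPM, and Stx3, a syntaxin, at 11.5 against 21.6 CPM (-0.85).

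Of 22 tested transcription factors of megakaryocytes and of the haematopoietic heptad, the factors that bind together at stem cell enhancers, 0 were higher and 1 was lower, with a median of 0.01. In the cells with Slamf1 and no Cd34 count 8 of 23 were higher and 1 lower (0.29). Beside this, 2030 of all 8987 genes tested there were higher and 1913 lower. Gata2 was at 212 against 167 CPM (0.35), Fli1 at 121 against 109 CPM (0.15), Nfe2 at 309 against 348 CPM (-0.17), and Erg at 63.9 against 79.9 CPM (-0.32). The lower gene was Ikzf5 (-0.85). Among 25 thrombopoietin and JAK-STAT genes, 2 were higher (Ghr, 0.84, and Spry1, 0.82) and 0 lower. This share of 8% higher is near that of all 8688 tested genes, 5.4% higher and 3.23% lower. Of the 25, 0 were higher past 1.5-fold and in at least 75% of libraries.

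Of 35 tested HSC identity genes, 7 were higher and 1 lower, with a median of 0.19 that was above 0 in 15 of 19 libraries and -0.02 in the cells with Slamf1 and no Cd34 count. Beyond Slamf1, Mycn, Mllt3 and Tgm2, the higher ones were Ctnnal1 (23.4 against 11.4 CPM, 0.98), the imprinted growth repressor Ndn (21.8 against 10.6 CPM, 0.98) and the retinoic acid receptor Rarb (10.2 against 2.92 CPM, 1.52). Meis1, a homeobox partner of HOX proteins, was at 297 against 318 CPM, and Cdkn1c, a cell cycle inhibitor, at 9.29 against 12.0 CPM. Vldlr was the lower gene, at 29.7 against 59.3 CPM (-0.97, lower in 16 of 19 libraries). Its library levels were 0, 10.6 and 216 CPM in Vwf+ cells and 0.558, 52.5 and 92.8 CPM in Vwf-negative cells.

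Of 20 tested multipotent and lymphoid progenitor genes, 4 were lower and 1 higher, with a median of -0.16 that was below 0 in 18 of 19 libraries and 0.04 in the cells with Slamf1 and no Cd34 count. The lower genes included Cd48, Flt3 and Cd34, described above. Tmsb10, an actin-binding peptide, was at 910 against 1273 CPM (-0.48, lower in 15 of 19), and Irf8, a factor of dendritic cell and monocyte fate, was the higher one at 19.5 against 9.78 CPM (0.92). Granulocyte and monocyte priming genes had a median of -0.13, below 0 in 17 of 19 libraries, with 3 of 15 higher and 4 lower. Gfi1, a transcriptional repressor needed for granulocyte formation, was at 7.21 against 12.9 CPM (-0.76, lower in 17), and Csf2rb, the common beta chain of cytokine receptors, at 13.1 against 20.3 CPM (-0.60, lower in 16, and -0.49 without library Lib77). Spi1, which encodes PU.1, was at 116 against 149 CPM (-0.36). The downward lean of directions over all genes, given above, applies to these library counts too.

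**Figure D4:**
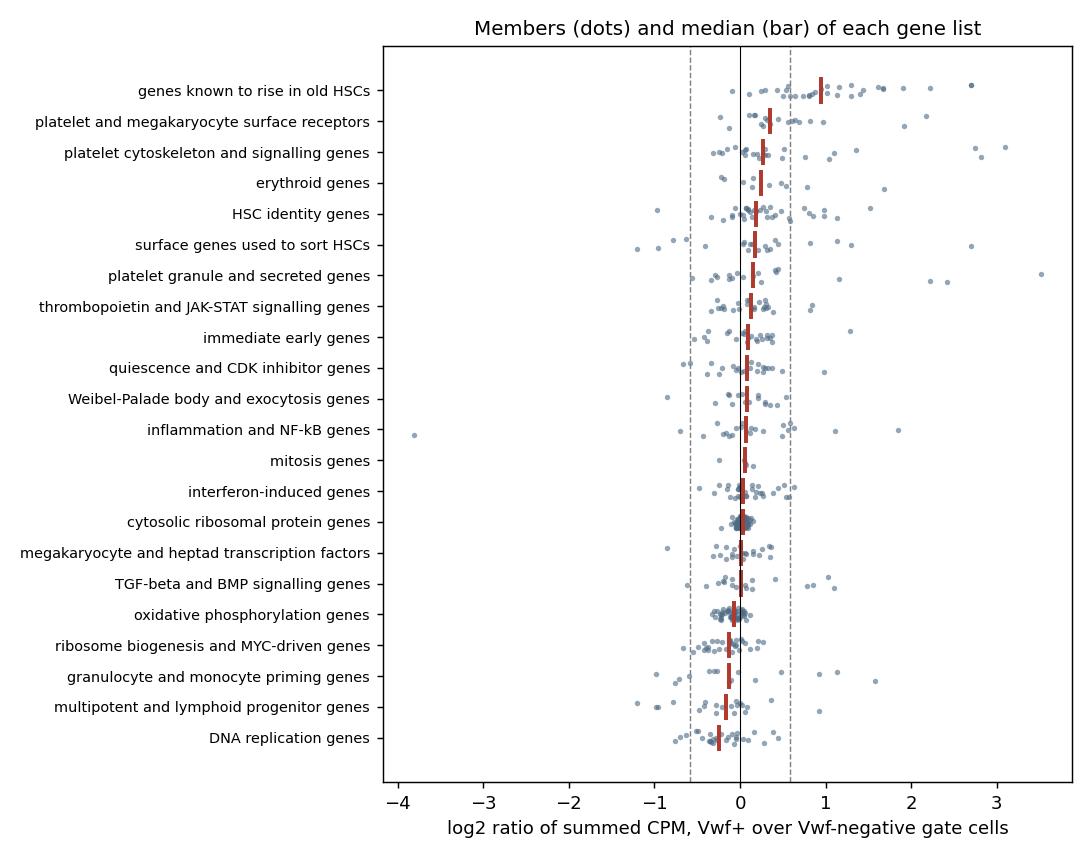
log2 ratio of summed CPM, Vwf+ over Vwf-negative gate cells, for the tested members (dots) of 22 gene lists, with the list's median as a red bar; dashed lines mark 1.5-fold. Genes known to rise in old HSCs stand at a median of 0.94 and the platelet lists between 0.15 and 0.35, with a few members beyond 2. Erythroid (0.25), HSC identity (0.19) and sort genes (0.17) lie within the range of the platelet lists. DNA replication genes are at -0.24, and the remaining lists between -0.16 and 0.13.

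Growth and division genes differed little, with the cycling genes held low by the gate. DNA replication genes had a median of -0.24 (0 of 28 higher, 3 lower, below 0 in 14 of 19 libraries), with Mcm7, a helicase subunit, at 87.3 against 125 CPM (-0.52). In the cells with Slamf1 and no Cd34 count this direction turned, to a median of 0.36 with 9 of 27 higher and 5 lower. Of all 8987 genes tested in those cells, 2030 were higher and 1913 lower. Oxidative phosphorylation genes were at -0.08, with 0 of 54 past the limits but below 0 in 15 of 19 libraries. Cytosolic ribosomal protein genes were at 0.03 (0 of 75), and ribosome biogenesis genes at -0.13 (1 of 32 lower). Quiescence and CDK inhibitor genes were at 0.08, with Ndn higher and Cdkn1b, which encodes p27, lower at 14.0 against 22.7 CPM (-0.66). Of 18 TGF-beta and BMP genes, 4 were higher (Tgfbr3, Id1, Smad7 and Id2) and Smad5 was lower, with a median of 0.01. Smad7, an inhibitor of the pathway, was at 0.42 without library Lib79 and Smad5, a BMP signal mediator, at -0.51 without Lib42. Id2, an inhibitor of helix-loop-helix factors, was at 61.4 against 35.4 CPM (0.78, 13 of 19 libraries). Interferon-induced genes (1 of 34 higher) and immediate early genes (1 of 23) had medians of 0.04 and 0.09, and of -0.25 and -0.52 in the cells with Slamf1 and no Cd34 count, where 11 of each list were lower.

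Along the Vwf level, Slamf1, Cavin2, Nupr1 and Cd34 differed most between the intermediate cells and the first class past the minimum. Thinned to 20000 counts, Slamf1 was present in 19.6% of cells without Vwf, 24.4% of intermediate cells, 34.2% of cells at 20 to under 100 CPM, 43.0% at 100 to under 300 CPM and 38.5% of the cells at 300 CPM or more. These groups had 1386, 156, 114, 100 and 13 cells deep enough to thin, so the last value is coarse. Cavin2 went from 8.80% to 14.1%, 29.8%, 31.0% and 38.5%, and Nupr1 from 54.2% to 59.0% in intermediate cells, 71.1% in the next class and 76.9% in the highest. Cd34 went down from 72.2% to 65.4%, 51.8%, 48.0% and 46.2%. Pf4 stayed between 41.0% and 46.2% and Selp between 38.5% and 52.0%. The old-HSC list had a median log2 ratio to Vwf-negative cells of 0.29 in intermediate cells, 0.84 at 20 to under 100 CPM, 0.99 at 100 to under 300 CPM and 0.71 at 300 CPM or more. The platelet receptor list had -0.01, 0.25, 0.31 and 0.58. Intermediate cells, most with 1 Vwf count, thus lay nearer to the Vwf-negative cells on these lists.

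**Figure D5:**
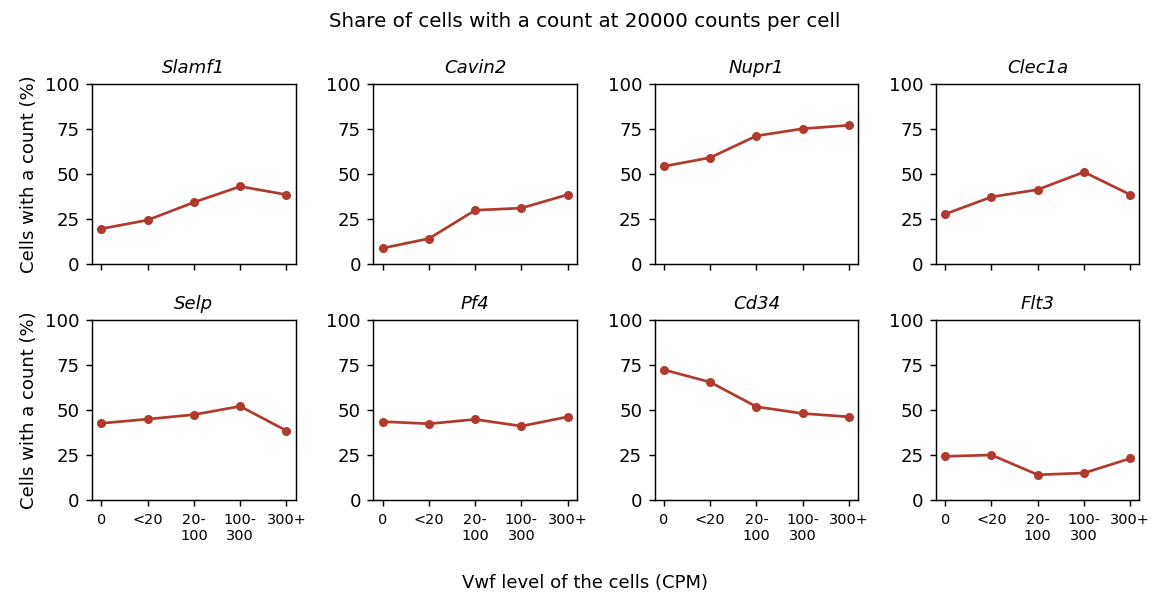
Share of gate cells (%) with a count of each of 8 genes after thinning every cell to 20000 counts, by Vwf level of the cell (CPM, 5 classes with 1386, 156, 114, 100 and 13 cells). Slamf1, Cavin2 and Nupr1 are higher and Cd34 lower from 20 CPM of Vwf on, while Pf4 stays between 41.0% and 46.2% and Selp between 38.5% and 52.0%.

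Markers of other cell types were present in both groups. Since endothelial cells also make Vwf, their markers were read first: 14 endothelial markers summed to a median of 22.7 CPM per Vwf+ gate cell and 7.0 CPM per Vwf-negative gate cell, with 3 of 233 and 3 of 1473 cells over 1000 CPM. Per cell the sum ran from 0 to 2374 CPM in the Vwf+ and from 0 to 1264 CPM in the Vwf-negative group, and 0 of the 14 markers were without a count. Their part in the results was not tested. One of the 3 had 2211 CPM of Cldn5, a tight junction gene of endothelium, and gave 29.7% of the group's Cldn5 counts. Erythroid markers were over 1000 CPM in 21.0% of Vwf+ and 19.8% of Vwf-negative gate cells, neutrophil markers in 9.0% and 6.7%, and macrophage markers in 4.7% and 1.5%. The summed level of neutrophil markers was 1412 against 583 CPM, and 547 against 88.9 CPM without the 8 libraries. Per cell their median was 9.15 CPM in Vwf+ and 6.04 CPM in Vwf-negative gate cells. The highest cells had 170872 and 137120 CPM, so these sums can rest on few cells. Stromal markers were over 1000 CPM in 0 of 233 Vwf+ gate cells, which allows a share of up to 1.29% (3 of 233 cells), and their median was 0. One Vwf+ gate cell had skeletal muscle transcripts, with 99.4% of the group's Ttn and 98.9% of its Myh4 counts. The filter for other cell types used 8 lists: neutrophil, erythroid, macrophage, stromal, B lineage, T lineage, plasma and skeletal muscle. Endothelial markers were not among them, so this filter did not remove cells for endothelial markers. Gate cells with over 1000 CPM of any of the 8 lists made up 27.9% of the Vwf+ and 26.6% of the Vwf-negative group. Without them the Vwf+ share of the gate was 12.3%.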

How the data were processed

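The authors deposited 1 matrix of whole-number counts per gene symbol and cell, not normalized. The submitters' processing notes name Trimmomatic 0.36, HISAT2 2.1.0, HTSeq 0.9.1 and build GRCm38. Per the labels' protocols, libraries followed STRT-seq, a Smart-seq2 variant in which 3' fragments are captured. The sources used here do not say whether reads or molecules were counted, and amplified copies are not independent molecules. A list of sequencing runs was not used here, nor were the columns of 1 library with 17 cells.

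Cells, gate and groups were taken as the report states, with Python 3.11.15, numpy 2.4.6, pandas 2.3.3 and scipy 1.17.1. Depth over the Vwf+ gate cells ranged from 8941 to 650223 counts. Cells were thinned without replacement (seed 1), leaving out 6 Vwf+ and 87 Vwf-negative cells under 20000 counts. No doublet caller was run, since cells were sorted singly. The planned comparison of months was not run because no cell could be assigned to a month. Gene lists (22, plus 13 of markers and 1 added after the data were seen) hold 780 genes, 765 of them in the matrix. Named genes were those of the rule, Selp and Slamf1, the 15 highest and 15 lowest ratios past 1.5-fold with 1 direction in at least 75% of libraries, and the highest and lowest of each list. The members and lists were chosen with earlier results of these data known. The ratio and thinning were tested on simulated data. Promoter rows were matched by symbol, for 4 of 4 genes shown and 21 of the 30 highest and lowest genes. Results for some genes of the lists are not reported here.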

Additional observations from a re-analysis of the deposited data

Results flagged for a closer look

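Vwf was also counted outside the stem cell gate. Of 2323 kept cells outside it, 221 had Vwf at 20 CPM or more, or 9.51% (exact 95% interval 8.35 to 10.8%), which is a signal in cells that no comparison here uses. Of these, 117 had Procr under 50 CPM and 158 had 30 CPM or more of Mki67, Top2a and Birc5. Among the 733 cells with enough Procr that failed only the limit on cycling genes, 98 (13.4%, 11.0 to 16.0%) had Vwf at the minimum, beside 12.5% in the gate. Among the 1537 cells with less Procr it was 7.61%.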

How the results depend on the processing

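The Vwf+ share was 9.61% with a minimum of 50 CPM, 20.9% with any count and 11.0% after thinning. Higher genes numbered 143 at a level minimum of 30 CPM, 1672 with none, 216 with a pseudocount of 10 CPM, 245 by the median of library ratios, 246 without top cells and 2030 in cells with Slamf1 and no Cd34 count; lower genes numbered 69, 932, 56, 1697, 489 and 1913 in the same order, and 429 without cells of other types. Leaving out 1 library in turn gave 412 to 515 higher and 267 to 313 lower genes. In the Slamf1 subset, with 36 and 60 cells, the medians of 9 of 22 lists turned: HSC identity -0.024, lymphoid 0.042, myeloid 0.013 (0.031 with no level minimum), DNA replication 0.36, ribosome biogenesis 0.020, quiescence -0.22, interferon -0.25, immediate early -0.52 and Weibel-Palade -0.08. So did Art4 -0.11, Bex4 -0.071, Hgfac -0.52, Sult1a1 -0.34, Dopey2 0.34, Rfxap 0.20, Ttl 1.05 and Ung 2.01. The cause was not tested. The subset, other-type, top-cell and left-out-library alternatives were chosen after seeing the data. Of 469 higher genes, 400 were still higher without the 8 libraries with neutrophil or erythroid markers, 272 after thinning, 262 without cells of other types, 262 by the mean of per-cell CPM, 246 without top cells, 203 in the Slamf1 subset and 112 by the median of library ratios. With 1 pooled sample no value here has an error between animals. No paired analysis was possible because cells could not be assigned to samples. That limit concerns samples, since both groups were matched within 19 libraries, which held 171 Vwf+ and 612 Vwf-negative gate cells. By the median of these library ratios, 245 genes were higher and 1697 lower, against 469 and 281 in the pooled comparison. Of the pooled genes, 112 higher and 233 lower ones were shared.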
